A study of Mus musculus with 7 samples.

Results

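Liver mRNA of 9 genes that act on circulating lipoproteins was examined, namely the lipases Lpl, Lipc and Lipg, their inhibitors Angptl4 and Angptl8, and the HDL-remodelling genes Lcat, Pltp, Abca1 and Scarb1. The genes were chosen by symbol for their known roles, with earlier results of these data known. All 9 were present among the 23347 genes of the deposited table and had enough counts to be tested. Each of 7 livers gave 1 library, 4 from B4galt1 flox/flox animals and 3 from animals that carry the label B4galt1 hep-/-. All were male on a C57BL/6 background, began the CDAHFD, a high-fat diet of defined amino acids without choline that induces steatohepatitis, as young adults and ate it for 15 weeks, so no chow-fed liver was compared. B4galt1 flox/flox mice, which the labels call WT, carried the floxed gene without Cre and were littermates of the others, which carried the floxed gene together with Alb-Cre. Alb-Cre acts under the albumin promoter, hence in hepatocytes, and the other cells of the liver keep the gene.

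Lipoprotein lipase (LPL) splits the triglyceride of chylomicrons and VLDL on the capillary wall, hepatic lipase works on remnants and HDL in the liver, and endothelial lipase prefers HDL phospholipid. ANGPTL4 and ANGPTL8 inhibit LPL. HDL begins with cholesterol that ABCA1 exports onto apolipoprotein A-I, LCAT esterifies that cholesterol, PLTP moves phospholipid between particles, and SR-BI, the product of Scarb1, takes cholesterol ester from HDL into hepatocytes. Adult hepatocytes normally carry little Lpl, and macrophages are a known source of Lpl, Pltp and Abca1.

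The libraries held 37838654 to 39668509 counts in B4galt1 flox/flox livers and 30608271 to 34586588 in those labelled B4galt1 hep-/-. Mitochondrially encoded transcripts took between 3.88% and 8.0% of counts in the former and between 14.4% and 22.6% in the latter. B4galt1 itself was at 48.7, 53.0, 49.2 and 51.7 CPM (counts scaled to the TMM-normalized library size) in B4galt1 flox/flox replicates 1 to 4, and at 28.4, 23.9 and 53.7 CPM in replicates 1 to 3 labelled B4galt1 hep-/-. Replicate 3 of the latter was above every control, so directions below are those of the libraries carrying the label. The log2 fold change of B4galt1 was -0.52 (SE 0.26, edgeR adjusted p = 0.181; two-sided exact permutation test, p = 0.143), and without replicate 3 it was -0.96 (adjusted p = 0.0139). Markers of hepatocytes (Alb, Ttr, Cps1, Asgr1, Hal and Tat) summed to between 65154 and 99820 CPM in controls and between 76730.2 and 125007 CPM in the other livers, and 0 of the 6 were called. Most of that sum is Alb, at 57197 of 65154 CPM in B4galt1 flox/flox replicate 1, and 3 of the 6 markers had log2 fold changes below 0, Cps1 at -0.85, Hal at -0.51 and Asgr1 at -0.11. B4galt1 flox/flox replicate 3 stood apart in endothelial markers, with a sum of 342 CPM against 80.9 to 124 CPM in the other 3 controls.

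Of the 9 genes, 1 was called higher and 1 lower in livers labelled B4galt1 hep-/-, with thresholds of 0.05 for the adjusted p and 0.58 for the log2 fold change in either direction. Among all 15179 genes tested, 15.8% were called, 8.0% higher and 7.83% lower, so the share among the 9 was near the background in each direction. Angptl8 was the gene called higher and Scarb1 the gene called lower. The median log2 fold change of the 9 was -0.25, against 0.02 for all genes tested, with 7 of 9 below 0 beside 48.7% of all genes. Without replicate 3 labelled B4galt1 hep-/- the same genes were called, 1 in each direction.

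**Figure D1:**
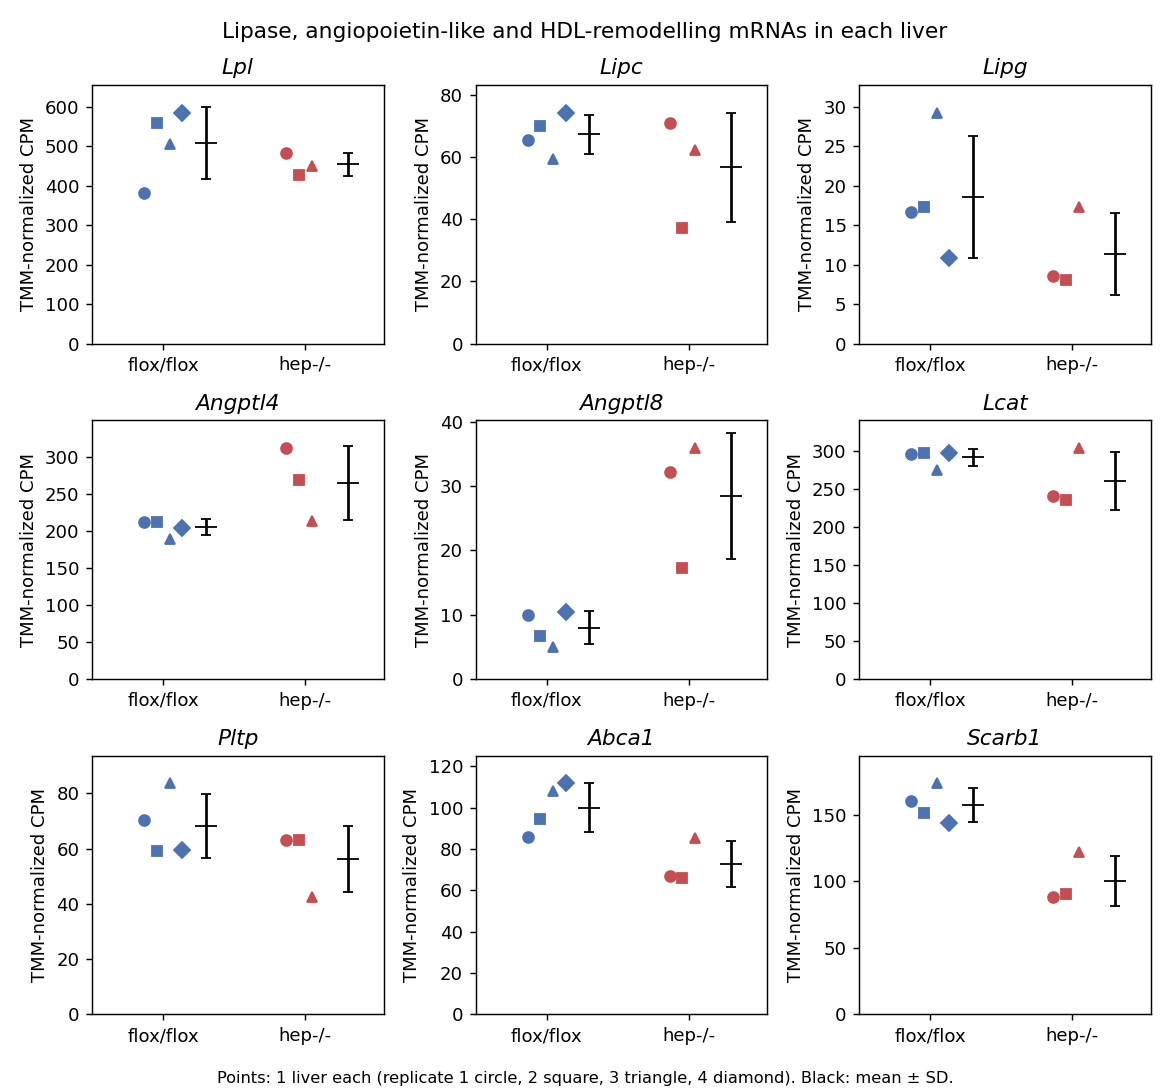
TMM-normalized CPM of each gene (vertical axis, starting at 0) in each liver, with B4galt1 flox/flox in blue and livers labelled B4galt1 hep-/- in red, and the mean ± SD beside each group in black. The red points of Angptl8 lie between 17.3 and 35.9 CPM, all above the blue ones, and those of Scarb1 lie between 88.5 and 122 CPM, all below the blue ones.

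Angptl8 and Abca1 are shown by the 250 bases before their annotated starts, Angptl8 because it changed most among the 9 genes and Abca1 because it was, of the 5 genes with an entry in the RefSeq promoter table (build GRCm38.p6), the one whose livers labelled B4galt1 hep-/- all lay below the controls on the CPM scale. Capitals mark matches on either strand to the E-box CACGTG, the TATA box TATAAA and the GC box GGGCGG, and 5 more motifs were searched, listed after the sequences.
Angptl8, chr9:21835260-21835509, plus strand: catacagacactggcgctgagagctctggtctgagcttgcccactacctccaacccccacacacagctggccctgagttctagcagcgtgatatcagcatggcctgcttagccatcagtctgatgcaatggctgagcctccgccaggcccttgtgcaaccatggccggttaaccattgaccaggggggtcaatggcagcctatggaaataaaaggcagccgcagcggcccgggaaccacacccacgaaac
Abca1, chr4:53159896-53160145, minus strand: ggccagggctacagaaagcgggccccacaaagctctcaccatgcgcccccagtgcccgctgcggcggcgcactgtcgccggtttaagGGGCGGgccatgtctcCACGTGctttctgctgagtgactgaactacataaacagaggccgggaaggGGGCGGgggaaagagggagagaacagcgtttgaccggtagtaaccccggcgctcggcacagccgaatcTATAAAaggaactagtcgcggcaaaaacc

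The Abca1 window held an E-box starting 147 bases before the start, GC boxes starting 163 and 97 bases before it and a TATA box starting 29 bases before it. Of 32851 such windows in the table, 6.02% held an E-box, 32.7% a GC box and 12.4% a TATA box. The Angptl8 window held none of the 8 motifs searched. The other 5 were the sterol regulatory element TCACNCCAC (1.05% of windows), the nuclear receptor hexamer AGGTCA (14.02%), its direct repeats with a spacer of 1 base (DR1, 0.0335%) or 4 bases (DR4, 0.0152%), which each contain the hexamer, and the CCAAT box (33.8%). The CCAAT box was found before Lipc, Lcat and Pltp, the hexamer before Lipc alone and the GC box before Lipc and Pltp as well as Abca1. Only exact matches to these letters were counted, with N for any base. Variant sites were not searched, so a window without a match can still hold a site for the same factor. Lpl, Lipg, Angptl4 and Scarb1 have no entry in the table.

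Lpl (NCBI gene 16956), the lipase of triglyceride-rich particles, was at 380, 560, 506 and 585 CPM in B4galt1 flox/flox replicates 1 to 4 and at 484, 426 and 451 CPM in replicates 1 to 3 labelled B4galt1 hep-/-. Replicate 1 of the controls was the lowest of all 7 livers, and the groups overlapped. Between groups it differed by a log2 fold change of -0.16 (SE 0.21, edgeR adjusted p = 0.626).

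Lipc (NCBI gene 15450), hepatic lipase, was at 65.5, 69.9, 59.5 and 74.3 CPM in controls and at 71.0, 37.0 and 62.2 CPM in the other livers. The single low liver was replicate 2 labelled B4galt1 hep-/-. The log2 fold change of -0.25 (SE 0.23, adjusted p = 0.478) became -0.02 without that mouse.

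Lipg (NCBI gene 16891), endothelial lipase, was at 16.7, 17.3, 29.3 and 10.9 CPM in controls and at 8.57, 8.11 and 17.4 CPM in livers labelled B4galt1 hep-/-. Replicate 3 was the highest liver within each group, and the groups overlapped. With a log2 fold change of -0.71 (SE 0.35, adjusted p = 0.184), Lipg was further from 0 than Scarb1 but varied more between mice, with a coefficient of variation of 41.6% in controls and 46.0% in the others. This became -0.40 without B4galt1 flox/flox replicate 3 and -1.16 without replicate 3 labelled B4galt1 hep-/-, and it was not called in either case (adjusted p = 0.432 and 0.0571).

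Angptl4 (NCBI gene 57875), an inhibitor of LPL that fasting and fatty acids induce in liver, was at 212.1, 212.3, 189 and 204 CPM in controls. Livers labelled B4galt1 hep-/- had 312, 269 and 212.4 CPM. All 3 were above the controls, replicate 3 only narrowly. At a log2 fold change of 0.37 (SE 0.19, adjusted p = 0.207), Angptl4 did not pass the threshold. On FPKM, which divides by the library total without TMM scaling, replicate 3 had 98.1 FPKM, below the 100.3 to 127 FPKM of the controls.

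Angptl8 (NCBI gene 624219), an inhibitor of LPL that feeding and insulin induce in liver, was at 9.89, 6.63, 5.01 and 10.4 CPM in controls, which rest on 430, 264, 214 and 369 counts. Livers labelled B4galt1 hep-/- had 32.2, 17.3 and 35.9 CPM, from 991, 572 and 1091 counts. Every liver of that group was above every control, and the lowest, replicate 2, exceeded the highest control. The mean was 7.99 ± 2.60 CPM (SD, n = 4) against 28.4 ± 9.86 CPM (SD, n = 3), a 3.56-fold increase with a log2 fold change of 1.83 (SE 0.31, adjusted p = 0.00540). The call held whichever of the 7 mice was left out, with log2 fold changes from 1.62 to 2.09.

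Angptl8 lies within the span of Dock6, a gene for a guanine nucleotide exchange factor on the opposite strand, and the exons of the genes share 0 bases in the GENCODE annotation of GRCm38. Whether the counting used strand is not given in the sources used here, so reads from Dock6 introns cannot be told apart from reads of Angptl8. Dock6, looked at for this position after the data were seen, was at 18.2, 9.61, 9.63 and 11.1 CPM in controls and at 26.7, 54.2 and 29.7 CPM in the other livers. Dock6 had a log2 fold change of 1.60 (SE 0.30, adjusted p = 0.00763) and also rose. The order of the livers differed, since replicate 2 labelled B4galt1 hep-/- was the highest for Dock6 and the lowest of its group for Angptl8. Angptl8 counts were 0.521 to 0.941 of those of Dock6 in controls and 1.21, 0.318 and 1.21 of them in replicates 1 to 3 labelled B4galt1 hep-/-. The part of Dock6 in the Angptl8 result was not tested.

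Lcat (NCBI gene 16816), the cholesterol-esterifying enzyme that the liver secretes onto HDL, was at 296, 298, 275 and 297 CPM in controls, the tightest group of the 9 genes with a coefficient of variation of 3.68%. Livers labelled B4galt1 hep-/- had 240, 236 and 304 CPM. Replicate 3 was the highest of all 7 livers, whereas the other 2 were below every control. Lcat gave a log2 fold change of -0.17 (SE 0.19, adjusted p = 0.571).

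Pltp (NCBI gene 18830), the phospholipid transfer protein, was at 70.3, 59.0, 83.6 and 59.4 CPM in controls and at 63.1, 62.9 and 42.4 CPM in the other livers, with overlapping groups. Pltp gave a log2 fold change of -0.28 (SE 0.21, adjusted p = 0.386). Pltp shares 495 of its 2354 exon bases with Ctsa, a lysosomal protease on the opposite strand, which came to -0.05 on the log2 scale (adjusted p = 0.855) and was at 232 to 263 CPM over the 7 livers, above Pltp in each. Reads of the shared bases cannot be told apart without strand.

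Abca1 (NCBI gene 11303), the exporter whose promoter is shown above, was at 86.0, 94.3, 108 and 112 CPM in controls and at 66.8, 65.7 and 85.5 CPM in livers labelled B4galt1 hep-/-. The groups did not overlap, but replicate 3 labelled B4galt1 hep-/- came within 1 CPM of control replicate 1. Abca1 had a log2 fold change of -0.46 (SE 0.19, adjusted p = 0.116), short of the threshold, and passed in 1 of 20 alternatives, on log2(FPKM + 0.1), at -0.58.

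Scarb1 (NCBI gene 20778), the hepatic HDL receptor SR-BI, was at 161, 151, 174 and 144 CPM in controls and at 88.5, 90.8 and 122 CPM in livers labelled B4galt1 hep-/-. Every liver of that group was below every control, and replicate 3 was the nearest to them. The mean was 157 ± 13.0 CPM (SD, n = 4) against 101 ± 18.9 CPM (SD, n = 3), a 1.57-fold decrease with a log2 fold change of -0.65 (SE 0.19, adjusted p = 0.0436). The call was lost when any of B4galt1 flox/flox replicates 1 to 4 or replicates 1 and 2 labelled B4galt1 hep-/- was left out (adjusted p from 0.0659 to 0.113, log2 fold change from -0.69 to -0.58). Without replicate 3 labelled B4galt1 hep-/- it was kept, at -0.82 (adjusted p = 0.0259).

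Groups did not overlap for 4 of the 9 genes on CPM, Angptl4 and Angptl8 with livers labelled B4galt1 hep-/- above and Abca1 and Scarb1 with them below. Among all tested genes 13.6% did not overlap with that group above and 15.0% with it below. On FPKM the genes without overlap were Angptl8 above and Lipc, Lcat, Abca1 and Scarb1 below, beside 8.14% of all tested genes above and 21.2% below on that scale.

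**Figure D2:**
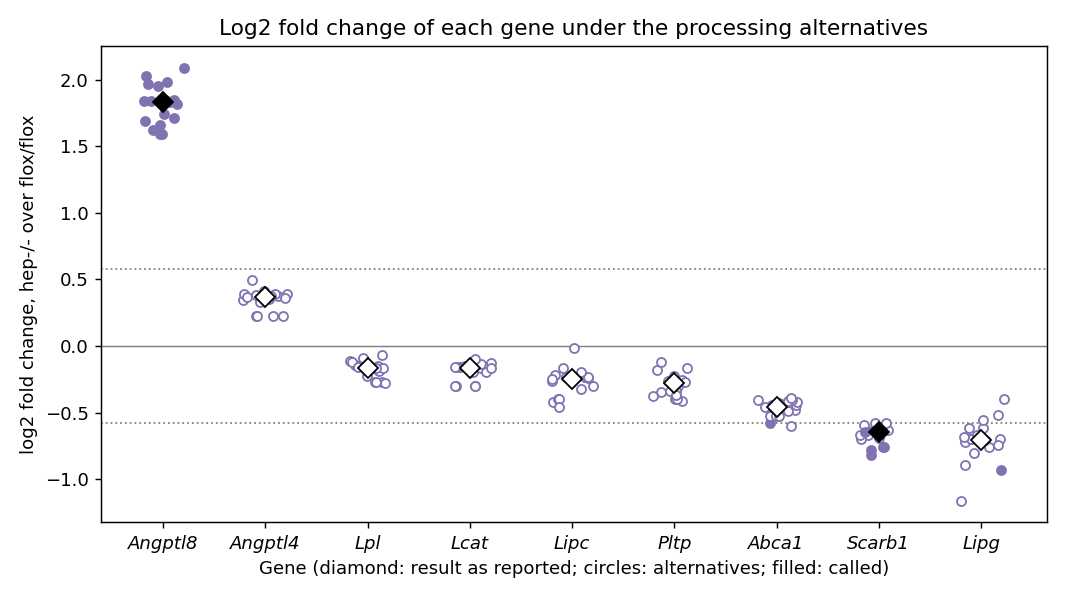
Log2 fold change (vertical axis, livers labelled B4galt1 hep-/- over B4galt1 flox/flox) of each gene as reported (diamond) and under the alternatives of normalization, filter, test and left-out mice (circles), filled where the gene was called and with dotted lines at the threshold of 0.58. Angptl8 stays between 1.59 and 2.09 with every point filled, and Scarb1 stays between -0.82 and -0.58 with filled and open points.

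Levels of different genes were compared per length, on the deposited FPKM. In controls the order from the highest mean was Lcat at 222 ± 18.5 FPKM, Lpl at 129 ± 14.6, Angptl4 at 112 ± 11.5, Scarb1 at 39.7 ± 6.18, Pltp at 38.7 ± 9.02, Lipc at 25.8 ± 1.60, Abca1 at 9.92 ± 0.918, Angptl8 at 9.57 ± 3.14 and Lipg at 3.95 ± 1.80 (SD, n = 4). Lpl was thus above hepatic lipase in all 7 livers. Of the 8 pairs of neighbours in that order, 3 kept it in all 7 libraries, namely Lcat over Lpl, Angptl4 over Scarb1 and Lipc over Abca1. The FPKM ranges of control livers overlapped for Lpl and Angptl4, for Scarb1 and Pltp, for Abca1 and Angptl8, and for Angptl8 and Lipg. Within the 7 libraries Lpl was above Angptl4 in 3, Scarb1 above Pltp in 4, Abca1 above Angptl8 in 2 and Angptl8 above Lipg in 6. Differences between neighbours were not tested. In livers labelled B4galt1 hep-/- Angptl8 averaged 30.6 ± 7.89 FPKM (SD, n = 3) and stood 4th of the 9 by its mean, against 8th in controls.

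**Figure D3:**
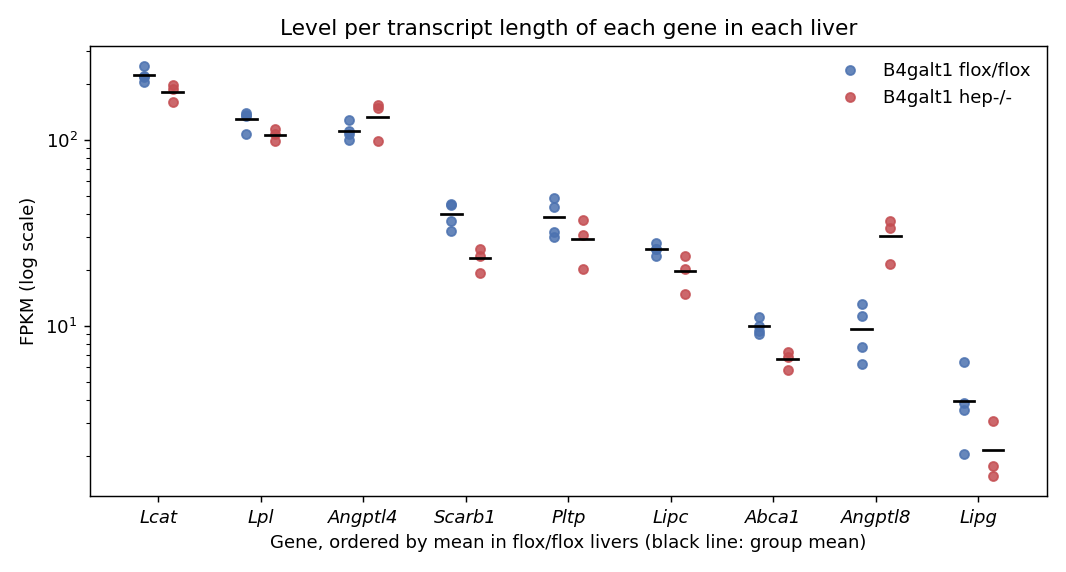
FPKM of each gene on a log axis in each liver (points; black lines are group means), with genes ordered by their mean in B4galt1 flox/flox livers in blue and livers labelled B4galt1 hep-/- in red. Lcat leads in both groups at 222 and 181 FPKM, and Angptl8 is the gene whose red points lie clearly above its blue ones.

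A ratio of counts of a pair of genes within a library does not depend on how libraries are scaled. Of 5 such ratios, the ratio of Angptl4 to Angptl8 counts separated the groups. It was 21.4, 32.0, 37.7 and 19.5 in controls and 9.68, 15.6 and 5.92 in livers labelled B4galt1 hep-/-, a mean log2 ratio of 4.74 ± 0.454 (SD, n = 4) against 3.27 ± 0.697 (SD, n = 3). The difference of -1.47 gave p = 0.0286 in a two-sided exact permutation test, the smallest that 4 livers against 3 allow, and 0.143 after adjustment over the 5 ratios. Hence no adjusted value could pass 0.05 unless 3 of the 5 ratios had reached that smallest p. The ratio of Angptl4 to Angptl8 uses the same Angptl8 counts as the call above, so it is not separate evidence for it. Reads from Dock6 introns cannot be told apart in this ratio either. The remaining ratios overlapped between groups, with differences of 0.15 for Lpl to Lipc (exact p = 0.629), -0.41 for Lipg to Lipc (exact p = 0.400), -0.11 for Pltp to Lcat (exact p = 0.714) and 0.20 for Abca1 to Scarb1 (exact p = 0.200). The ratio of Abca1 to Scarb1 counts ranged from 0.535 to 0.777 in controls and from 0.699 to 0.755 in the others.

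Macrophage markers were lower in livers labelled B4galt1 hep-/-, as Scarb1 was. The 10 markers (Adgre1, Clec4f, Timd4, Cd68, Csf1r, Marco, Vsig4, Trem2, Gpnmb and Itgax) summed to 861 to 1824 CPM in controls and to 430 to 536 CPM in livers labelled B4galt1 hep-/-, without overlap. Of the 10, 7 were called lower, beside 7.83% of all genes tested. The log2 difference of the sums was -1.27 (exact permutation p = 0.0286, 0.229 after adjustment over 8 marker lists), and the sum was highest in B4galt1 flox/flox replicate 3. In whole liver, fewer cells of a type and less RNA per cell cannot be told apart, and the part of macrophages in the values of Lpl, Pltp, Abca1 and Scarb1 was not tested. Of the other lists, 1 of 8 endothelial markers was called lower (Kdr), 0 of 7 stellate cell, 0 of 5 cholangiocyte, 0 of 8 lymphocyte and 0 of 4 tested neutrophil markers were called, and of 3 red blood cell markers Hba-a1 was called higher and Alas2 lower. Among all genes tested 15.8% were called in either direction. The adipocyte markers Adipoq and Retn had between 0 and 6 counts per library and did not pass the filter on low counts, so markers of adipose tissue, a rich source of Lpl and Angptl8, were at the limit of detection. Retn had 0 counts in each control and 1, 6 and 1 in replicates 1 to 3 labelled B4galt1 hep-/-. Adipoq had 1 count in B4galt1 flox/flox replicate 2 and 0 elsewhere.

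**Figure D4:**
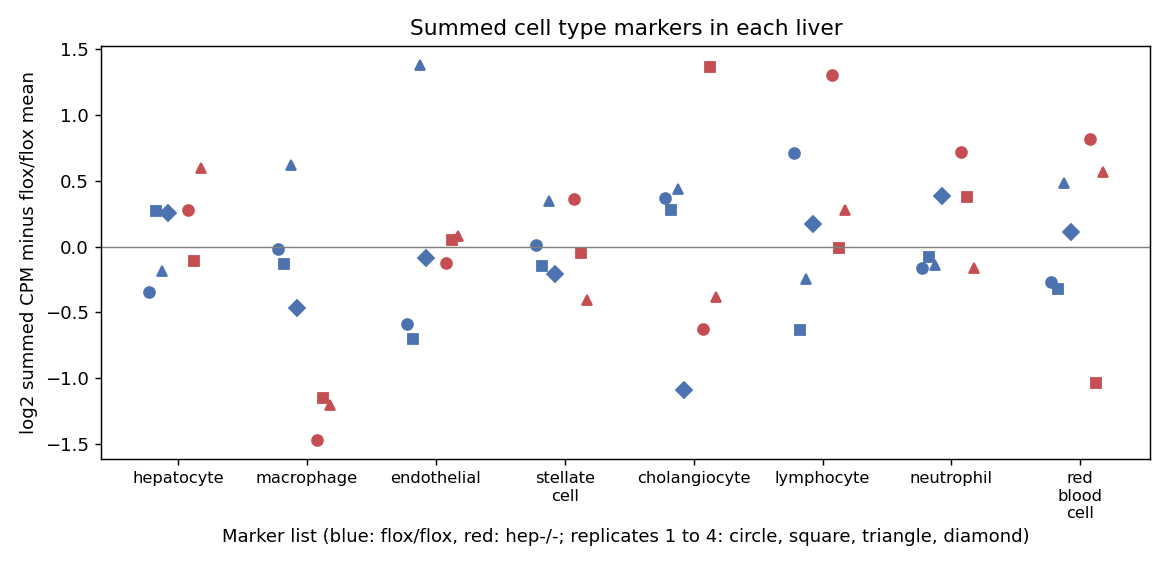
Log2 of the summed CPM of each marker list in each liver, as the difference from the mean of the B4galt1 flox/flox livers (blue), with livers labelled B4galt1 hep-/- in red and a symbol for each replicate. Macrophage markers are the list whose red points all lie below the blue ones, at 430 to 536 CPM against 861 to 1824 CPM, and the blue triangle far up in the endothelial column is B4galt1 flox/flox replicate 3.

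The wider pathway was read from lists of 39 genes, all of which were tested. In livers labelled B4galt1 hep-/- 2 of them were called higher and 8 lower, or 5.13% and 20.5%, beside 8.0% and 7.83% of all genes tested. The median log2 fold change of the 39 was -0.18, against 0.02 for all genes. Without B4galt1 flox/flox replicate 2 the calls were 0 higher and 4 lower, beside 2.74% and 3.16% of all genes in that fit. Without B4galt1 flox/flox replicate 3 they were 0 and 5 (all genes, 4.65% and 4.71%), and without replicate 1 labelled B4galt1 hep-/- also 0 and 5 (all genes, 6.48% and 5.21%). Without replicate 3 labelled B4galt1 hep-/- they were 2 and 7 (all genes, 6.28% and 7.51%).

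Among 11 genes of LPL maturation, anchoring and control, 2 were called higher and 1 lower, or 18.2% and 9.09%, beside 8.0% and 7.83% of all genes tested. Apoc3, an inhibitor of LPL and of remnant uptake, was at 1148 ± 402 CPM (SD, n = 4) in controls and 2595 ± 397 CPM (SD, n = 3) in the others, a log2 fold change of 1.18 (SE 0.28, adjusted p = 0.0183), and Apoc1, a small HDL and VLDL protein that also inhibits LPL, one of 1.0 (SE 0.26, adjusted p = 0.0263). The livers labelled B4galt1 hep-/- were above every control for both genes. Calls were lost in 4 of 7 fits without a mouse for Apoc1 and in 3 for Apoc3. For both genes these included the fits without B4galt1 flox/flox replicate 2 or 3 and without replicate 1 labelled B4galt1 hep-/-. Apoc1 also lost the call without B4galt1 flox/flox replicate 1.

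Apoc2, the activator of LPL, was low at 2.93 to 10.7 CPM in controls and 10.7 to 16.6 CPM in the others, with a log2 fold change of 1.0 (SE 0.36, adjusted p = 0.0804). It was called in 5 of 20 alternatives, namely DESeq2, voom, the replicate block, keeping every gene with a count, and leaving out B4galt1 flox/flox replicate 1 (1.33, edgeR adjusted p = 0.0250). Apoa5, which enhances LPL action, came to -0.18 on the log2 scale (adjusted p = 0.650). Gpihbp1, the endothelial anchor of LPL, was at 6.67, 6.07, 40.4 and 10.7 CPM in controls, with replicate 3 far above the rest, and at 9.77, 12.6 and 14.6 CPM in the others. Its log2 fold change of -0.37 (adjusted p = 0.676) turned to 0.66 (adjusted p = 0.144) without B4galt1 flox/flox replicate 3, the liver that was also high in endothelial markers. Pcsk6, a proprotein convertase, was called lower at -0.84 (SE 0.23, adjusted p = 0.0321), and the call was lost in 6 of 20 alternatives, including the fits without B4galt1 flox/flox replicate 2 or 3 or replicate 1 or 2 labelled B4galt1 hep-/-.

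Among 8 genes of remnant and LDL uptake, 0 were called in either direction by edgeR. At an unadjusted p under 0.05, 4 of them were lower and 1 higher, beside 16.1% and 16.8% of all tested genes. DESeq2 called 2 lower and 0 higher, beside 10.3% and 11.3% of all tested genes. The median log2 fold change of these 8 genes was -0.41, with 6 of them below 0.

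Among 8 HDL proteins and enzymes, 1 was called, or 12.5%, which is no more than the 15.8% of all genes tested. Apom, the HDL carrier of sphingosine 1-phosphate, was at 106, 158, 141 and 138 CPM in controls and at 46.9, 37.2 and 83.8 CPM in livers labelled B4galt1 hep-/-, a 2.42-fold decrease (log2 fold change -1.28, SE 0.28, adjusted p = 0.0140) called in every fit without a mouse. Apoa1, the main HDL protein and acceptor of ABCA1, lay above every control in all 3 livers, with a log2 fold change of 0.70 (SE 0.28, adjusted p = 0.109) that did not pass. It was called higher in 1 of 20 alternatives.

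Among 12 genes of sterol efflux, uptake and esterification, 6 were called lower and 0 higher, beside 7.83% and 8.0% of all genes tested. Lipa, the lysosomal acid lipase, was at 219, 279, 382 and 207 CPM in controls and at 119, 78.6 and 112 CPM in the others, a log2 fold change of -1.40 (SE 0.26, adjusted p = 0.00816). Npc2, which hands cholesterol from the lysosome lumen to NPC1, had a log2 fold change of -1.28 (SE 0.25, adjusted p = 0.00895), and Soat1, which esterifies cholesterol in macrophages and other cells, one of -1.27 (SE 0.29, adjusted p = 0.0150). These 3 genes were highest in B4galt1 flox/flox replicate 3, as were macrophage markers, and kept the call in each fit without a mouse. Without that liver the log2 fold change was -1.19 for Lipa, -1.08 for Npc2 and -0.92 for Soat1. The part of macrophages in these values was not tested.

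Pdzk1, the scaffold that holds SR-BI in the hepatocyte membrane, had a log2 fold change of -0.78 (SE 0.24, adjusted p = 0.0452), in the same direction as Scarb1. It lost the call in 5 of 7 fits, those without B4galt1 flox/flox replicate 2, 3 or 4 or replicate 2 or 3 labelled B4galt1 hep-/-. Abcg8, which exports sterols into bile as a heterodimer with ABCG5, had a log2 fold change of -0.74 (SE 0.17, adjusted p = 0.0183), lost without B4galt1 flox/flox replicate 2 or replicate 1 labelled B4galt1 hep-/-, whereas Abcg5 had 0.17 (adjusted p = 0.543). The difference between Abcg8 and Abcg5 was not tested. Npc1, the lysosomal cholesterol transporter, had a log2 fold change of -0.60 (SE 0.17, adjusted p = 0.0367), just past the threshold, and lost the call in all 7 fits (adjusted p from 0.0602 to 0.0951). Nr1h3, the sterol-sensing receptor LXRα that drives Abca1, was at 76.1 to 86.5 CPM in controls and 72.7 to 90.2 CPM in the others, at -0.02 on the log2 scale (adjusted p = 0.943), and its sign changed with the scaling.

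**Figure D5:**
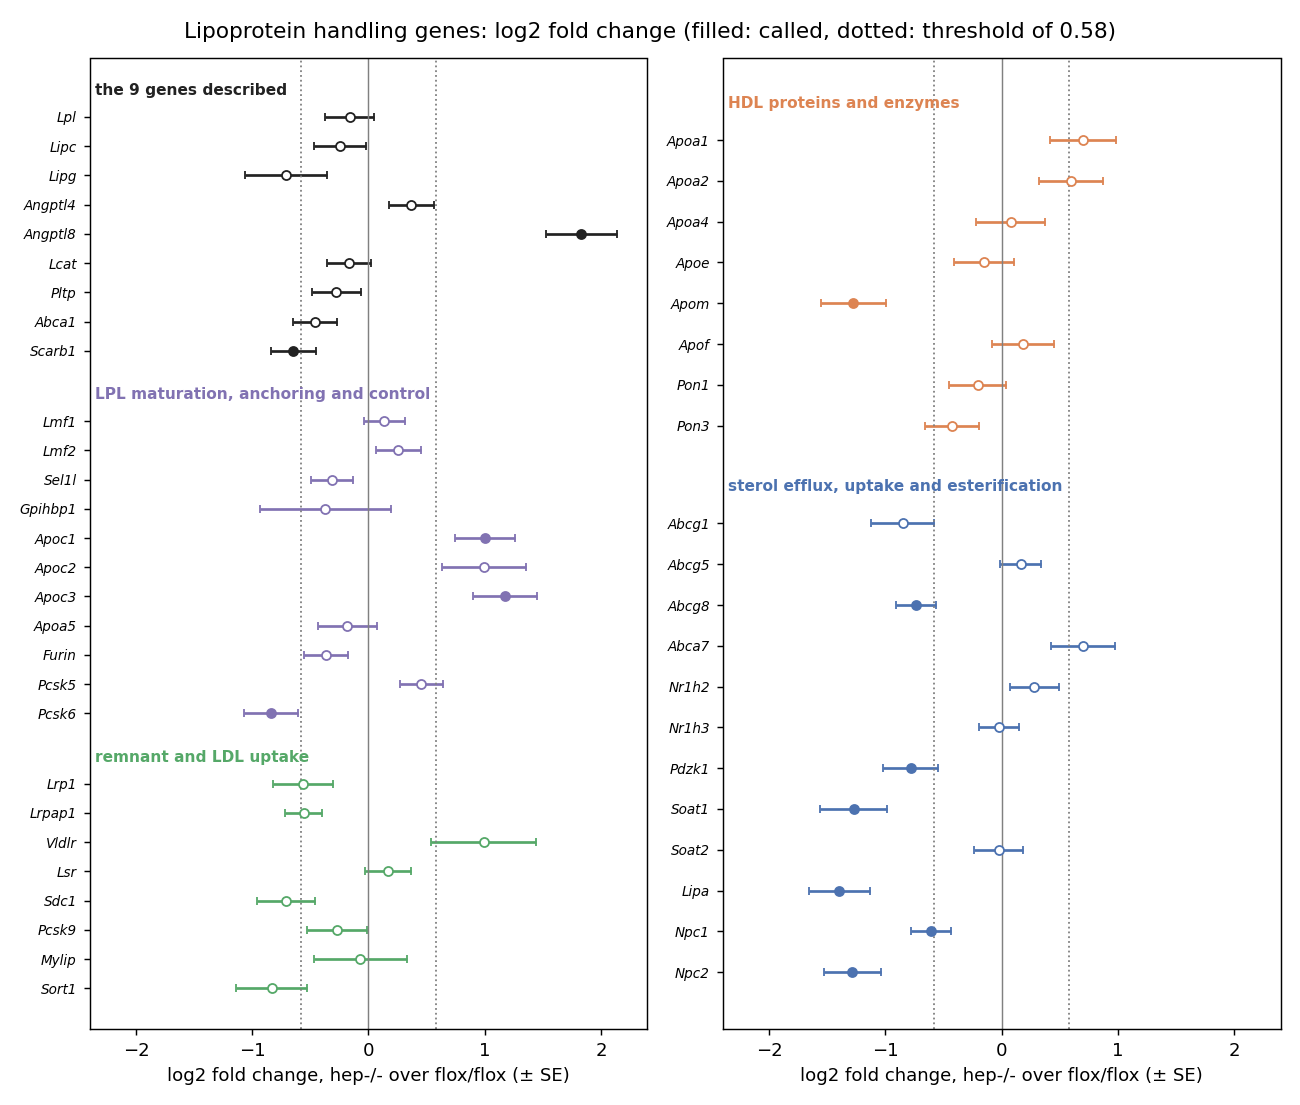
Log2 fold change ± SE (horizontal axis, livers labelled B4galt1 hep-/- over B4galt1 flox/flox) of the 9 genes and of the 39 genes of the 4 pathway lists, filled where called, with dotted lines at the threshold of 0.58. Filled points to the right are Angptl8 at 1.83, Apoc3 and Apoc1, and the filled points furthest to the left are Lipa at -1.40, Npc2, Apom and Soat1.

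For each of the 9 genes, the 2 genes most like it were taken by Pearson's r of log2 CPM over the 7 libraries, among 7475 genes at or above the median level. With 7 points that share the group difference and the scaling, high values are common, and 634 genes exceeded 0.9 for Scarb1 and 6 for Lpl. Scarb1 was most like Tm7sf2, a sterol reductase of cholesterol synthesis (r = 0.995), and C1qc, a complement gene of macrophages (r = 0.994), and both were called lower. Angptl8 was most like Crebzf (r = 0.985) and Rmnd1 (r = 0.985, but 0.884 on log2(FPKM + 0.1)), Abca1 most like Tmem208 (r = 0.992) and Dusp22 (r = 0.985), and Lcat most like Xbp1 (r = 0.992) and Serpina1d (r = 0.988), which fell to 0.868 and 0.840 on log2(FPKM + 0.1). Lipg was most like Por (r = 0.989) and Traf6 (r = 0.989), Lipc most like Bbln (r = 0.990) and Them7 (r = 0.973, but 0.794 without replicate 2 labelled B4galt1 hep-/-), and Lpl most like Gtf3c3 (r = 0.956) and Smu1 (r = 0.924). Angptl4 was most like Gtf2h3 (r = 0.965) and Zscan21 (r = 0.962), and Pltp most like Clic1 (r = 0.968) and Rasa3 (r = 0.967).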

How the data were processed

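RNA was extracted with TRIzol and libraries were made with the VAHTS Universal V6 kit. The authors deposited raw counts per gene and FPKM values for the same mice, and the submitters' processing notes name fastp, HISAT2, HTSeq, DESeq2 and R 3.2.0 with the build GRCm39. Among the 13374 genes whose count reached 10 in all mice, the deposited FPKM equalled count over a fixed gene length and library total within 1%. The annotation used here, for promoters and for overlapping genes, is of GRCm38, not the build of the counts.

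Genes passing filterByExpr (minimum count 10, minimum total 15; 15179 genes) were scaled by TMM and compared between groups by the quasi-likelihood F-test of edgeR 4.0.16 (R 4.3.3), with Benjamini-Hochberg adjustment across all of them. Adjusted p-values in the text are from this test unless named otherwise, and SE was computed from the F statistic. A gene was called at adjusted p under 0.05 and absolute log2 fold change over 0.58. Marker sums and ratios (0.5 added to counts) were compared by two-sided exact permutation over the 35 splits of 4 and 3 livers. In these libraries 3 counts equal 0.0690 to 0.0987 CPM. The fit was tested on simulated data.

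The 9 genes and all lists were chosen with earlier results of these data known, and some list genes are not reported here. Named genes are the 9, B4galt1, called list genes, 6 list genes called or not (Gpihbp1, Apoc2, Apoc3, Apoa5, Nr1h3 and Apoa1) and the 2 most alike per gene, without predicted and mitochondrially encoded genes; Abcg5, Kdr, Hba-a1, Alas2, Dock6 and Ctsa were added after the data were seen. That each library is a separate mouse rests on the labels. Numbers 1 to 3 occur in both groups but did not pair the mice. Other settings tried were upper-quartile or RLE scaling, DESeq2 1.42.0, other filters, limma 3.58.1 on FPKM and on voom weights, a replicate block, removal of 13 mitochondrially encoded genes, other fold thresholds and each mouse left out.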

Additional observations from a re-analysis of the deposited data

Results flagged for a closer look

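In the 4 B4galt1 flox/flox livers, 9 of 38 measures had a liver set apart from the other 3 by Dixon's gap test at the 95% level. For a single measure with normal values chance gives about 1 in 20. The 38 measures come from the same 4 livers and are not independent, so their count is not a test against that rate. Replicate 3 was high for Gpihbp1 (40.4 CPM), Soat1 (58.8 CPM), Npc2 (220.1 CPM) and summed endothelial markers (342 CPM), and low for Lcat (275 CPM), whose controls differ by little. Replicate 4 was high for Apoc1 (2442 CPM) and summed neutrophil markers (36.4 CPM) and low for summed cholangiocyte markers (14.2 CPM). Replicate 2 was low for Nr1h3 (76.1 CPM), a difference of few CPM.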

How the results depend on the processing

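Angptl8 was called higher under all 20 alternatives (log2 fold change from 1.59 to 2.09), and Scarb1 lower under 11 of 20. The count of the 9 genes called lower was 1 as reported. It was 0 with a fold threshold of 1 (log2) and 0 to 1 with a mouse left out. When every gene with a count was kept it was 0, beside 1362 of 22960 genes. On log2(FPKM + 0.1) it was 2, as Abca1 joined, beside 1946 of 10914 genes called lower on that scale. The 39 list genes called lower, 8 as reported, ranged from 4 with a fold threshold of 1 to 11 with DESeq2, and from 4 to 8 with a mouse left out. Those called higher, 2 as reported, were 4 with DESeq2, 4 with voom, 0 on log2(FPKM + 1) without a filter and 0 to 3 with a mouse left out. Of all 15179 genes DESeq2 called 10.3% lower and 11.3% higher, and voom called 1541 higher. On log2(FPKM + 1) without a filter 242 of 22960 genes were called higher. B4galt1 passed on log2(FPKM + 1) (-0.67), on log2(FPKM + 0.1) (-0.73) and in 1 of the fits without a mouse, which ranged from -0.96 to -0.30. Gpihbp1 changed sign with the replicate block (0.064), voom (0.42) and B4galt1 flox/flox replicate 3 left out (0.66), and Nr1h3 with upper-quartile scaling (0.014), voom (0.081) and replicate 2 labelled B4galt1 hep-/- left out (0.058). With a mouse left out, Gpihbp1 ranged from -0.63 to 0.66 and Nr1h3 from -0.11 to 0.058. The cause was not tested. On log2(FPKM + 1) the median of all genes was -0.14, against 0.02 as reported, and 24.5% of calls were higher, against 50.5%. Same-numbered livers did not deviate together (r = -0.34, -0.03 and 0.08), and under the replicate block calls over all genes fell from 2404 to 1267, with Lipg called lower (-0.93) and Apoc2 higher, and Scarb1, Pcsk6, Abcg8, Pdzk1 and Npc1 lost. DESeq2 called 3271 genes and log2(FPKM + 1) without a filter 1330. With a mouse left out, calls over all genes ranged from 885 (without B4galt1 flox/flox replicate 2) to 2396, with 1405 and 1552 without replicates 3 and 4 of that group and 1199 without replicate 2 labelled B4galt1 hep-/-. Exact tests with a mouse left out cannot pass 0.05 and were read as values.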
